A study of Cicer arietinum with 4 samples.

Results

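The UDP-glycosyltransferase genes of chickpea (*Cicer arietinum*, a grain legume) that carry a numbered family symbol were followed in ovules before and after fertilization. Members were all genes whose symbol begins with UGT followed by a digit, and the family is that number. There were 68 of them among the 28783 listed genes, in 18 families, and all 68 are protein-coding in the RefSeq gene table. Any UDP-glycosyltransferase gene listed under another symbol is not counted. Sums, shares and sizes of a family are therefore those of its members so named. Post-fertilization ovules came from half-opened flowers and pre-fertilization ovules from closed buds, both of cultivar ICC4958, with 2 libraries of total RNA per group. No treatment or mutation is given for either group, and the stage of the flower differs together with fertilization. The libraries are called post A, post B, pre A and pre B, with letters that carry no order. Wherever a pair of values is given for a group, that of library A stands before that of library B. The labels do not say whether libraries of a group came from separate plants, so p-values measure the spread between these libraries, which may be technical.

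UDP-glycosyltransferases move a sugar from a UDP-sugar donor onto a small acceptor molecule, such as a flavonoid, a lignin precursor, a hormone or a saponin. The sugar makes the acceptor more soluble, allows its storage in the vacuole and can switch a hormone off or hold it in reserve. In plants the enzymes are numbered by sequence likeness, so a family shares ancestry but often holds enzymes for different acceptors. Ovules and young seeds are known as tissues rich in flavonoid glycosides and hormone conjugates.

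Levels are FPKM as the authors deposited them, fragments relative to the length of the transcript and to a library size whose scaling is not stated. Levels of genes of different length can therefore be compared. Depth relative to pre A, read from the FPKM worth of 1 fragment on genes with low values, was 1.01 in post A, 1.11 in post B and 0.549 in pre B. On UGT members of low level 1 fragment was worth about 0.0389 FPKM in post A, 0.0353 in post B, 0.0393 in pre A and 0.0714 in pre B. Of 26 marker symbols listed for ovule, anther and photosynthetic tissue, 0 are in the table, so the tissue label was not checked with markers. In such bulk samples, fewer cells of a type and less RNA per cell cannot be told apart.

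The UGT genes mostly stood at low levels in the ovule, and more of them reached 1 FPKM after fertilization. At least 1 FPKM was reached by 31 members in post A and 32 in post B, against 23 in pre A and 22 in pre B. As shares these were 45.6% and 47.1% after fertilization, against 33.8% and 32.4% before. The same shares over 22940 protein-coding genes were 70.1% and 71.3% after, against 68.1% and 68.4% before. The median member stood at 0.779 and 0.727 FPKM after fertilization, against 0.471 and 0.273 FPKM before. Protein-coding genes had medians of 6.86 and 7.32 FPKM in the post libraries, against 6.51 and 6.44 FPKM in the pre libraries. Only 9 members reached 10 FPKM in any library, and 3 members, UGT79B23, UGT88E10 and UGT88E4, were listed at 0 in all 4 libraries.

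**Figure D1:**
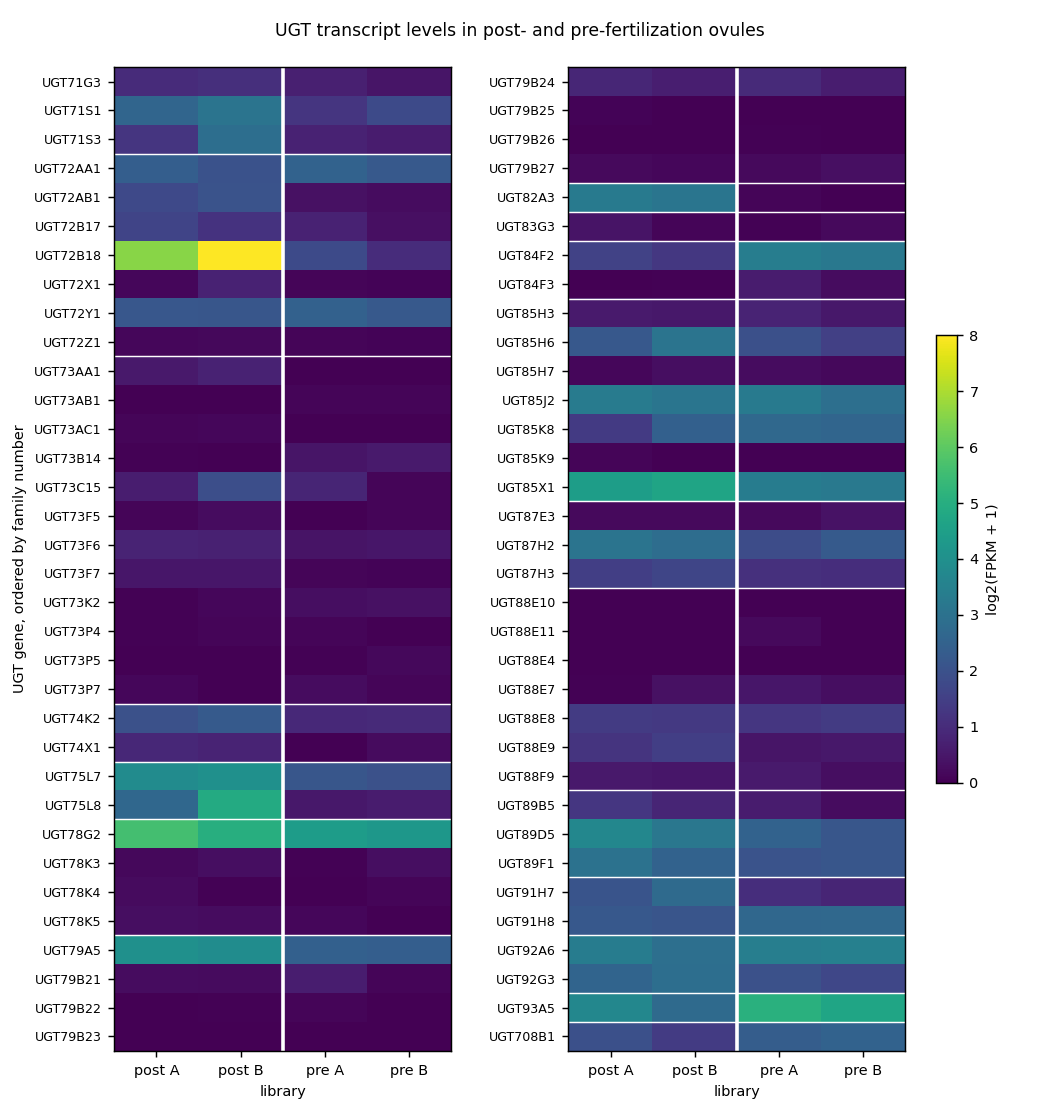
Transcript level of each of the 68 UGT genes in each library, as log2(FPKM + 1) by colour, with rows ordered by family number and the post-fertilization libraries left of the pre-fertilization ones. UGT72B18 is the brightest row after fertilization and UGT93A5 before it, while the rows of UGT73 and of the UGT79B genes are dark throughout, apart from UGT73C15 in post B.

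Summed over all members, the level was 321 FPKM in post A and 487 FPKM in post B, against 157 FPKM in pre A and 136 FPKM in pre B. The ratio of group means was 2.75. UGT72B18 alone supplied 29.5% and 51.4% of that sum in post A and post B, against 1.55% and 0.763% in pre A and pre B. Without it the sums were 226 and 237 FPKM after fertilization, against 155 and 135 FPKM before, a ratio of means of 1.60. The FPKM of all listed genes also summed higher after fertilization, to 1.48 and 2.41 times the sum of pre A in post A and post B, against 1.22 times in pre B. The 10 highest genes held 35.7% and 37.5% of that library sum after, against 26.0% and 30.1% before. As a share of the library sum, the members without UGT72B18 held 0.0103% and 0.00662% after, against 0.0104% and 0.00749% before, so these groups overlapped. With FPKM rescaled to equal library sums the ratio for these members was 0.944, and with UGT72B18 included it was 1.55. The order of the members differed between the groups. After fertilization UGT72B18, UGT78G2, UGT85X1, UGT75L8 and UGT79A5 had the highest means and held 66.1% of the sum. Before fertilization UGT93A5, UGT78G2, UGT92A6, UGT85X1 and UGT84F2 led and held 51.3%.

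Post-fertilization ovules were tested against pre-fertilization ovules with limma on log2(FPKM + 1) over the 17849 genes that reached 1 FPKM in at least 2 libraries, with p-values adjusted over all of them after Benjamini and Hochberg and a threshold of 0.05. Every log2 fold change is given as post minus pre on that scale, and so understates the change of low genes. In all, 6522 genes (36.5%) were called. Of the 68 members 30 passed the filter (44.1%, against 62.0% of all listed genes). Among these 30, 15 were called higher (50%), where 21% of all tested genes were called higher. Another 3 were called lower (10%), where 15.5% of all tested genes were. The remaining 12 did not pass the threshold and 38 were not tested. Of the 30, 7 met the filter through the post-fertilization libraries alone, and 5 of those are among the 15. These 5 are UGT72AB1, UGT74K2, UGT75L8, UGT82A3 and UGT88E9. The count over tested members is therefore partly fixed by the filter. With 1 residual degree of freedom left, 3 of the 18 calls remained without pre A (UGT72B18, UGT75L7 and UGT82A3) and 1 without pre B (UGT82A3), and these losses are not repeated at each gene. The balance of all calls depended on the scaling between libraries. Quantile normalization gave 16.8% of tested genes higher and 22.1% lower, and 13 members higher and 3 lower. Rescaling to equal library sums put the median over the tested genes at -0.67 on the log2 scale and gave 7.41% of genes higher and 20.2% lower, with 7 members higher and 5 lower. The calls lost under equal library sums were those of UGT71S1, UGT74K2, UGT78G2, UGT79A5, UGT85X1, UGT87H2, UGT88E9, UGT89D5 and UGT92G3, and UGT708B1, UGT71S3 and UGT85K8 were then past the threshold. Over all 68 members the called shares were 22.1% higher and 4.41% lower, against 13% and 9.62% over all listed genes.

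The filter does not bear on the order of the libraries, which was read for every listed gene. Both post-fertilization libraries lay above both pre-fertilization libraries in 31 of 68 members (45.6%), where 29.6% of all listed genes did so. They lay below in 14 members (20.6%), where 26.6% of all listed genes did so. With equal library sums these shares were 25% above and 27.9% below for the members, beside 11.6% above and 44.1% below for all listed genes. In 23 members as deposited the groups overlapped, which includes the 3 listed at 0 throughout. Silent genes can lie neither above nor below, and they are a larger part of all listed genes than of the members. Above 0 in any library were 23921 of the 28783 listed genes and 65 of the 68 members. The shares over all listed genes, here and in the called shares above, are lowered by that. The median log2 fold change over all 68 members was 0.08, beside 0 over all listed genes, and over the 30 tested members it was 0.89, beside 0.02 over all tested genes. These shares and medians describe the members and carry no test.

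**Figure D2:**
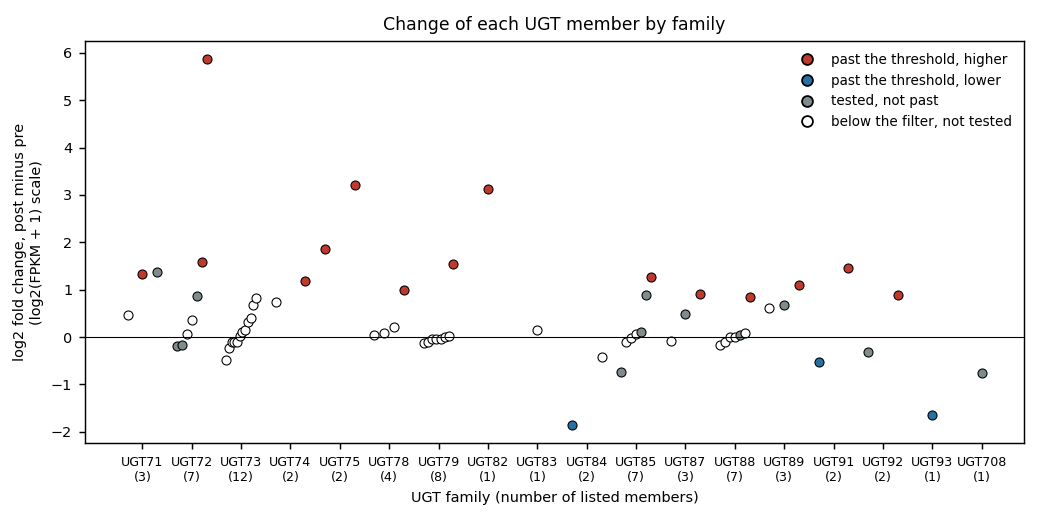
Log2 fold change (post minus pre, from log2(FPKM + 1)) of each of the 68 UGT genes, grouped by family with the number of listed members in brackets. Filled red and blue points passed limma's threshold, grey points did not, and open points were below the filter. Red points appear in 13 of the 18 families and blue points in UGT84, UGT91 and UGT93.

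Family UGT72 includes enzymes that glycosylate lignin precursors in *Arabidopsis* and epicatechin in the seed coat of *Medicago truncatula*. Its member UGT72B18 lies on chromosome 3 from 39393244 to 39394908, in the coordinates of the deposited table, whose genome build the sources used here do not state. Chromosome numbers here and for other members are those that a RefSeq gene table of another assembly gives. UGT72B18 stood at 94.6 FPKM in post A and 250.2 FPKM in post B, against 2.44 FPKM in pre A and 1.04 FPKM in pre B. The groups lay far apart, and within each group the libraries differed by more than 2-fold. Ranked by level among all listed genes, UGT72B18 was number 1409 in post A and 648 in post B, against 15025 in pre A and 16834 in pre B. Its mean was 172 ± 110 FPKM after and 1.74 ± 0.993 FPKM before fertilization (SD, n = 2), with a limma log2 fold change of 5.87 (SE 0.54) and an adjusted p of 0.0045. The ratio of means was 99.0 with all libraries, 54.3 without post B and 166 without pre A.

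The other members of the family stood far lower after fertilization, and 1 of them was called. UGT72AB1 stood at 2.41 and 3.10 FPKM after fertilization, against 0.274 and 0.214 FPKM before, and was called higher (limma log2 fold change 1.59, SE 0.20, adjusted p = 0.00794). UGT72B17, the second member of subfamily B, was at 2.13 and 1.25 FPKM after, against 0.693 and 0.266 FPKM before, and did not pass (limma adjusted p = 0.0701). UGT72AA1 and UGT72Y1, the highest of the family before fertilization, did not pass. UGT72AA1 averaged 3.64 ± 0.816 FPKM after and 4.20 ± 0.679 FPKM before, and UGT72Y1 3.49 ± 0.0652 FPKM after and 4.15 ± 0.680 FPKM before (SD, n = 2). Their limma adjusted p-values were 0.548 and 0.402. UGT72X1 and UGT72Z1 lie next to each other on chromosome 3 with 1356 bp between them and stayed under 1 FPKM. UGT72X1 held about 3 fragments in post A and 22 in post B, against 2 in pre A and 1 in pre B, so that post B alone was high. UGT72Z1 held 3 and 4 after, against 2 and 1 before.

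Both members of UGT75, a family with enzymes that act on auxin and abscisic acid in *Arabidopsis*, were called higher. UGT75L7 on chromosome 6, from 10708705 to 10710421, stood at 13.4 and 15.1 FPKM after fertilization, against 3.43 and 2.94 FPKM before. The libraries of a group were close, and the ratio of means was 4.48 (limma log2 fold change 1.87, SE 0.15, adjusted p = 0.00357). UGT75L8 on chromosome 5 stood at 5.43 FPKM in post A and 28.9 FPKM in post B, against 0.444 FPKM in pre A and 0.540 FPKM in pre B. Here the post-fertilization libraries differed 5.32-fold, and the ratio of means was 34.9 with all libraries, 58.8 without post A and 11.04 without post B. Its limma log2 fold change was 3.22 (SE 0.75, adjusted p = 0.0330). It was no longer past the threshold at a pseudocount of 5 or with no filter. Before fertilization UGT75L7 was the higher of the pair in both libraries, while in post B it was the lower.

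UGT78G2 carried nearly all of the level of family UGT78. It belongs to the family whose *Arabidopsis* and *Medicago* members add sugar to flavonols and anthocyanins. It stood at 48.2 and 31.7 FPKM after fertilization, against 20.3 and 17.8 FPKM before, and was called higher (ratio of means 2.10, limma log2 fold change 1.0, SE 0.22, adjusted p = 0.0301). It supplied 98.8% of the family's summed FPKM after fertilization and 98.9% before. The remaining UGT78 members, UGT78K3, UGT78K4 and UGT78K5, held between 0 and 6 fragments in any library.

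UGT79 likewise had 1 member at a high level. *Arabidopsis* enzymes of this family add a further sugar to anthocyanin glucosides. UGT79A5 on chromosome 4, from 8462177 to 8463846, stood at 15.3 and 13.9 FPKM after fertilization, against 4.42 and 4.29 FPKM before. Its limma log2 fold change was 1.54 (SE 0.13, adjusted p = 0.00405). All 7 members of subfamily UGT79B stayed under 1 FPKM in every library. UGT79B24 was the highest of them, at 0.709 ± 0.153 FPKM after and 0.759 ± 0.264 FPKM before (SD, n = 2). UGT79B24, UGT79B25, UGT79B23 and UGT79B26 follow each other on chromosome 1 with no other listed gene between them, and the last 3 of these held at most 1 fragment in any library. UGT79B21 held 5 and 5 fragments after, against 14 and 1 before, and UGT79B22 at most 2 in any library.

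UGT88, whose soybean member of subfamily E glucosylates isoflavones, stayed under 2 FPKM in all 7 members and libraries. UGT88E9 was called higher, at 1.29 and 1.79 FPKM after fertilization, against 0.365 and 0.443 FPKM before (limma log2 fold change 0.85, SE 0.20, adjusted p = 0.0358). Under quantile normalization, or with a replicate block by column ending, it was no longer past the threshold. It did not meet a filter of 5 FPKM. UGT88E8 stood at 1.60 and 1.52 FPKM after, against 1.38 and 1.61 FPKM before, and the groups overlapped (limma adjusted p = 0.877). UGT88E10 and UGT88E4 were listed at 0 throughout, and UGT88E11 was above 0 only in pre A. UGT88E7 held about 1 and 8 fragments after fertilization, against 10 and 3 before. UGT88F9 held 11 and 11 after, against 12 and 3 before. The FPKM values of both overlapped between the groups.

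UGT89, which has a flavonol rhamnosyltransferase in *Arabidopsis*, and UGT71, with enzymes for flavonoids and abscisic acid in that species, lay higher in both post libraries in each of their 6 members, in FPKM as deposited. With equal library sums the summed level of UGT71 stayed higher in both post libraries and that of UGT89 overlapped. UGT89D5 stood at 11.9 and 8.0 FPKM after fertilization, against 4.70 and 3.44 FPKM before, and was called higher (limma log2 fold change 1.10, SE 0.24, adjusted p = 0.0296). UGT89F1 was at 7.03 and 4.73 FPKM after, against 3.10 and 3.41 FPKM before, and did not pass (limma adjusted p = 0.0693). UGT89B5 was at 1.40 and 0.791 FPKM after, against 0.535 and 0.209 FPKM before, and was below the filter. UGT71S1 was called higher, at 5.11 and 7.36 FPKM after, against 1.33 and 2.49 FPKM before (limma log2 fold change 1.33, SE 0.28, adjusted p = 0.0270). UGT71S3 was at 1.34 FPKM in post A and 6.49 FPKM in post B, against 0.695 FPKM in pre A and 0.533 FPKM in pre B. Only post B stood well above the rest, and the gene did not pass (limma log2 fold change 1.38, SE 0.58, adjusted p = 0.129). UGT71G3 averaged 1.06 ± 0.0900 FPKM after and 0.484 ± 0.184 FPKM before (SD, n = 2) and was below the filter. The calls of UGT89D5 and UGT71S1 were lost without post A and also without post B, and that of UGT89D5 with no filter. UGT71S3 was past the threshold when post A was left out, and UGT89F1 when post B was.

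The leading members of UGT84 and UGT93 were called lower. UGT84 enzymes of *Arabidopsis* make glucose esters of hydroxycinnamic acids such as sinapic acid. UGT84F2 stood at 1.97 and 1.43 FPKM after fertilization, against 9.38 and 8.16 FPKM before, and was called lower (limma log2 fold change -1.86, SE 0.18, adjusted p = 0.00502). UGT84F3, its neighbour on chromosome 4 at 2160 bp, held 0 and 1 fragments after fertilization, against 13 and 3 before. Both genes were lower in both post libraries, and UGT84F3 was too low to be tested. UGT93A5 shares its subfamily with the bean (*Phaseolus*) enzymes that add sugar to the cytokinin zeatin. It stood at 12.0 and 5.78 FPKM after fertilization, against 32.6 and 24.8 FPKM before, where it was the highest of all members. Its mean was 3.23-fold lower after fertilization (4.96-fold when post A was left out and 2.40-fold when post B was), with a limma log2 fold change of -1.65 (SE 0.35, adjusted p = 0.0262). With post B left out the call was lost.

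UGT708B1, of the family that attaches sugar through a carbon bond to flavonoids in soybean and buckwheat, was also lower in both post libraries. It stood at 2.88 and 1.62 FPKM after fertilization, against 4.13 and 4.73 FPKM before. It missed the threshold (limma adjusted p = 0.0695) and was past it when post A was left out.

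Further families hold enzymes for hormones and for cyanogenic and other small acceptors. UGT74, which glucosylates salicylic acid and auxin in *Arabidopsis*, had both members higher in both post libraries. UGT74K2 was called, at 2.98 and 3.84 FPKM after fertilization, against 0.889 and 0.946 FPKM before (limma log2 fold change 1.19, SE 0.19, adjusted p = 0.0132). UGT74X1 held about 18 and 17 fragments after fertilization, against 0 and 2 before, and was below the filter. UGT87H2, of a family with a member that affects flowering time in *Arabidopsis*, was called higher at 7.48 and 6.30 FPKM after, against 2.62 and 3.77 FPKM before (limma log2 fold change 0.92, SE 0.20, adjusted p = 0.0288). That call was lost without either post library, with no filter and with quantile normalization. UGT87H3 was at 1.79 and 2.19 FPKM after, against 1.18 and 1.07 FPKM before (limma adjusted p = 0.0951), and was past the threshold when post A was left out.

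In UGT85, which includes cytokinin glucosyltransferases in *Arabidopsis* and enzymes of cyanogenic glucosides in sorghum, 1 of the 4 tested members was called. UGT85X1 on chromosome 6, from 14866729 to 14869464, was called higher at 21.1 and 24.3 FPKM after fertilization, against 9.16 and 8.48 FPKM before (limma log2 fold change 1.27, SE 0.13, adjusted p = 0.00542). UGT85J2 overlapped between the groups, at 9.03 and 7.62 FPKM after, against 8.82 and 6.64 FPKM before (limma adjusted p = 0.685). UGT85K8 was at 1.55 and 4.48 FPKM after, against 5.45 and 5.07 FPKM before. It missed the threshold (limma adjusted p = 0.199) and was past it when post B was left out. UGT85H6 was at 3.59 and 7.45 FPKM after, against 2.91 and 1.88 FPKM before (limma adjusted p = 0.114). UGT85H6 lies inside the span that the table gives to UGT85H3, so reads of these genes may have been shared and their values are uncertain. UGT85H3 stayed under 1 FPKM, and UGT85H7 and UGT85K9 held at most 7 fragments in any library.

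Families UGT73 and UGT91 include enzymes that decorate triterpene saponins in legumes. UGT73, which includes saponin glycosyltransferases in soybean and *Medicago truncatula* and brassinosteroid and flavonol enzymes in *Arabidopsis*, was the most numerous family with 12 members, and 0 of the 12 passed the filter, so none was tested in the fit. UGT73C15 was the highest, at 0.576 FPKM in post A and 2.80 FPKM in post B, against 0.788 FPKM in pre A and 0.0755 FPKM in pre B, with overlapping groups. The other 11 stayed under 1 FPKM. UGT73AA1 held about 14 and 23 fragments after fertilization and was listed at 0 in both pre libraries. UGT73F7 held 12 and 13 after, against 2 and 1 before, and its neighbour UGT73F6 held 24 and 24 after, against 11 and 7 before. In the opposite direction UGT73B14 held 1 and 0 after, against 9 and 7 before. UGT73AB1, UGT73AC1, UGT73F5, UGT73K2, UGT73P4 and UGT73P5 held at most 6 fragments in any library, and UGT73P7 reached at most 0.193 FPKM. With no filter on the level, limma called UGT73AA1 and UGT73F7 higher and UGT73B14 lower, along with UGT74X1 higher. That fit called 3393 of 23921 genes higher and 2226 lower. In each of these members the lower group lay near 0 FPKM, where little spread can arise on the log2(FPKM + 1) scale. The calls follow partly from that.

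UGT91 has a soybean member of subfamily H that adds rhamnose to soyasaponins. Its chickpea members UGT91H7 and UGT91H8 lie side by side on chromosome 1 (904435 to 906182, then 907546 to 909273) and were called in opposite directions. UGT91H7 stood at 3.18 and 5.77 FPKM after fertilization, against 1.08 and 0.774 FPKM before (limma log2 fold change 1.47, SE 0.29, adjusted p = 0.0221). UGT91H8 stood at 3.64 and 3.35 FPKM after, against 5.36 and 5.56 FPKM before (limma log2 fold change -0.52, SE 0.14, adjusted p = 0.0475). The family sum was 6.82 and 9.12 FPKM after, against 6.44 and 6.33 FPKM before, with overlap under quantile normalization and the post sums lower under equal library sums, while UGT91H8 made up 43.9% of it after and 85.5% before. The call of UGT91H8 was lost with any single library left out, with no filter and with a filter of 5 FPKM.

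The families UGT82, UGT83 and UGT92 are given here without a role. UGT82A3 on chromosome 2, from 36361237 to 36363008, was close to 0 before fertilization. It stood at 8.52 and 7.70 FPKM after, against 0.0807 FPKM in pre A, the worth of about 2 fragments, and 0 in pre B. No ratio is given against so few fragments. Its limma log2 fold change was 3.13 (SE 0.17, adjusted p = 0.00184), and its call held in every alternative. UGT82A3 met the filter through the post libraries alone, and its pre values lie at the floor of the log2(FPKM + 1) scale. Little spread could arise there, so the small SE and the holding of the call follow partly from that floor. UGT92G3 was called higher, at 4.99 and 6.44 FPKM after, against 2.99 and 2.25 FPKM before (limma log2 fold change 0.89, SE 0.20, adjusted p = 0.0305), a call lost without either post library and with no filter or a filter of 5 FPKM, which UGT92G3 did not meet. UGT92A6 was at 9.36 and 6.54 FPKM after, against 9.77 and 10.2 FPKM before, and did not pass (limma adjusted p = 0.258). UGT83G3 held 9 and 2 fragments after, against 1 and 2 before.

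**Figure D3:**
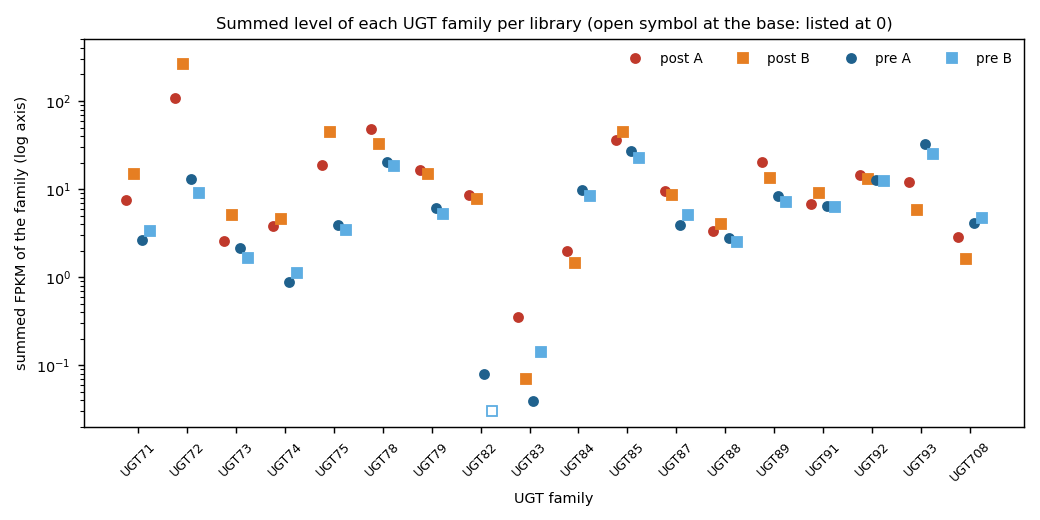
Summed FPKM of each UGT family in each library on a log axis, with an open symbol at the base for a sum of 0. The post-fertilization sums of UGT72 are 107 and 262 FPKM, against 12.9 and 9.04 FPKM before fertilization, and UGT84, UGT93 and UGT708 are the families whose post-fertilization sums both lie below the pre-fertilization ones in FPKM as deposited.

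By family, both post-fertilization sums lay above both pre-fertilization sums in 14 of the 18 families, below in 3 and overlapped in 1, UGT83, in FPKM as deposited. Sums were not made for other gene families, and of single listed genes 29.6% lay above and 26.6% below. A family sum follows its highest members. In UGT79 1 of 8 members lay above, with a median log2 fold change of -0.03, and in UGT88 1 of 7, with a median of 0. UGT78G2 supplied 98.8% of the UGT78 sum after fertilization. With quantile normalization the sums of UGT73, UGT88, UGT91 and UGT92 overlapped too, which left 10 above and 3 below. With equal library sums 5 lay above (UGT71, UGT72, UGT74, UGT75 and UGT82), 5 below (UGT84, UGT91, UGT92, UGT93 and UGT708) and 8 overlapped. In UGT72 the ratio of the mean sums was 16.8, and 9.77 without post B, while the median log2 fold change over its 7 members was 0.36. UGT75 had a ratio of 8.55 and UGT71 of 3.72, and these were 5.12 and 2.47 without post B. The ratio was 1.08 in UGT92 and 1.25 in UGT91, each with 1 member higher and 1 lower in both post libraries, and under equal library sums it was 0.656 and 0.720. UGT73 and UGT88, with 12 and 7 listed members, summed to at most 5.08 and 4.01 FPKM in any library.

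The spread within a group, described here without a test, was wider after fertilization on several members. Among the 30 tested members, the higher library exceeded the lower by more than 2-fold in 6 after fertilization and in 2 of the 29 before that could be compared, and the median ratio was 1.38 after and 1.21 before. The 30 include 7 that met the filter through the post libraries alone, UGT75L8 and UGT71S3 among them. The set therefore leans toward members with a high post value. The same spread was not computed over all tested genes, so it is not shown to be particular to the members. Of the 6, post B was the higher library in 5, which were UGT75L8, UGT71S3, UGT85K8, UGT72B18 and UGT85H6. Post B is also the deepest library, and its part in these differences was not tested.

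For members not tested, the order of the libraries rested on few fragments. Of the 38 untested members, 32 stayed under 1 FPKM in every library and were above 0 in at least 1, and 16 of these were above 0 in all 4. In 29 of the 32 every value lay within 0.05 of a whole number of fragments, where a value of 0 counts as whole. The worth of 1 fragment was fitted for each member from its lowest depth-scaled value above 0, so that value was whole by construction. Members above 0 in a single library could hardly fail, so the count is partly fixed in advance. Among the 16 above 0 throughout this held for 13. UGT87E3 had the same number of fragments in all 4 libraries, and UGT79B27 had 4 and 3 after fertilization, against 4 and 4 before. Both count among the 14 members that lay lower after fertilization, since 1 fragment is worth more FPKM in either pre library than in either post library, by little between pre A and post A. These numbers carry counting error, for which no interval was computed.

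Members of the families often lay close together. Neighbouring members within 50000 bp of each other, on the same sequence of the deposited table, formed 18 pairs with 30 members, of which 16 pairs were within a family. Both members of 10 pairs were below the filter, 1 pair was called in opposite directions (UGT91H7 and UGT91H8) and 0 pairs were called in the same direction. Both members were tested only in the pairs UGT85J2 with UGT91H7, UGT91H7 with UGT91H8, and UGT71S3 with UGT82A3. Every other pair had an untested member and could not be called together, so these counts do not show whether neighbours changed alike. UGT85J2, UGT91H7 and UGT91H8 follow each other with 207 and 1363 bp between them, and their limma log2 fold changes were 0.10, 1.47 and -0.52. UGT71S3 and UGT82A3, from different families, lie 3351 bp apart with 1 other listed gene between them, and both stood higher in both post libraries, with UGT82A3 called and UGT71S3 not past the threshold. UGT87H2 was called higher beside UGT87E3, 4757 bp away, which had equal fragments in all libraries. The sources used here do not say how the authors treated reads that fit several copies, and values of neighbouring members of a subfamily are uncertain to that extent.

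**Figure D4:**
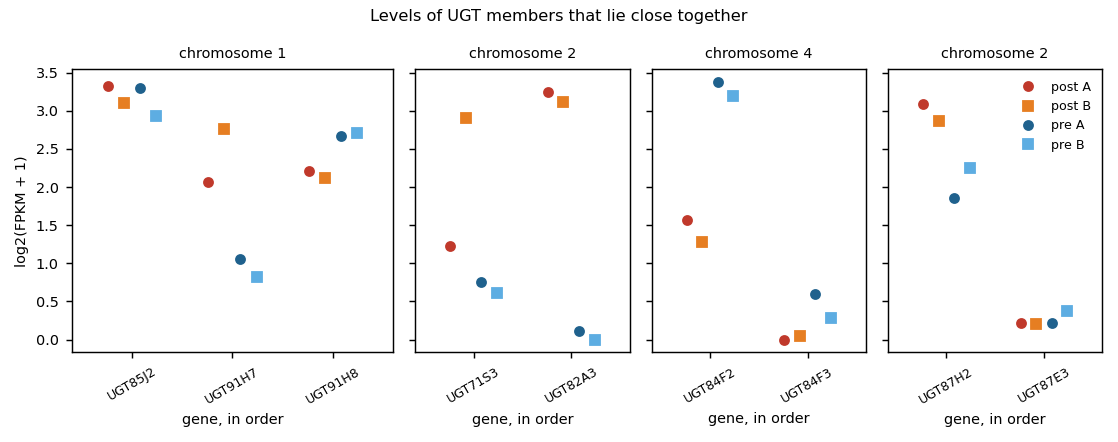
Level of neighbouring UGT genes in each library as log2(FPKM + 1), in 4 groups on chromosomes 1, 2 and 4, with post-fertilization libraries in red and orange left of the pre-fertilization libraries in blue. UGT91H7 lies higher and UGT91H8 lower after fertilization beside an overlapping UGT85J2, while UGT84F2 and UGT84F3 are both lower.

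Few genes that supply the acceptors carry a symbol. Of 10 phenylpropanoid, flavonoid and isoflavonoid genes found by symbol or synonym, 5 were tested, 1 was called higher, 2 were called lower and 2 did not pass, where 21% of all tested genes were called higher and 15.5% lower. CHS met the filter through the post libraries alone and CYP93C3 through the pre libraries alone, where each is high, so the filter partly fixed these counts. CHS, chalcone synthase, stood at 3.34 and 5.86 FPKM after fertilization, against 0.350 and 0.716 FPKM before (limma adjusted p = 0.0139). PAL, phenylalanine ammonia-lyase, was lower at 1.42 and 1.68 FPKM after, against 3.05 and 3.62 FPKM before (limma adjusted p = 0.0314). CYP93C3, of the subfamily of isoflavone synthase, was lower at 0.476 and 0.123 FPKM after, against 2.57 and 2.62 FPKM before (limma adjusted p = 0.0115). CYP73, cinnamate hydroxylase, did not pass, at 13.4 ± 1.06 FPKM after and 10.04 ± 1.83 FPKM before (SD, n = 2; limma adjusted p = 0.126), and neither did CYP81E2 (limma adjusted p = 0.674). CYP81E4 was at 0.644 FPKM in post A and 37.1 FPKM in post B, against 0.841 FPKM in pre A and 0.209 FPKM in pre B. With only post B high it was below the filter and not tested. The median log2 fold change of the 10 was -0.02. No gene of UDP-sugar supply was found by symbol. A gene with the synonym Usp was left out, since the synonym does not say which protein is meant. It stood at 35.8 and 56.9 FPKM after fertilization, against 15.9 and 10.6 FPKM before (limma adjusted p = 0.0165).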

How the data were processed

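RNA sequencing of 2 post- and 2 pre-fertilization ovule libraries was deposited as 1 table with an FPKM value per gene and library. Per the submitters' processing notes, the tools were Cuffdiff, Cufflinks, HISAT2, fastp and FastQC, listed with neither versions nor roles. The sources used here do not state a genome build, an annotation or a scaling of libraries to each other. Median-of-ratios factors of the deposited values were 1.004 in post A, 1.003 in post B, 1.003 in pre A and 0.9998 in pre B. The values as deposited thus already stood near a common median-of-ratios scale. The FPKM values the authors deposited are not counts and absolute depth is unknown, so the test was limma 3.58.1 (R 4.3.3) on log2(FPKM + 1) with group only, a variance trend, 2 residual and 2.55 prior degrees of freedom and two-sided p-values. The fit was tested on simulated data. Columns name a group but not a sample. Relative depth came from the commonest ratio of values under 0.15 FPKM on genes spanning 800 to 4000 bp. Fragment numbers of members under 1 FPKM were sought with 1 fragment worth 0.03 to 0.055 FPKM in pre A and a tolerance of 0.05. Chromosome numbers follow a RefSeq gene table of another assembly of CDC Frontier, matched on gene number for all 68 members. Named by rule were called members, each family's highest member and, in families of 3 or more, the member with the largest change. The rest are described because every member is accounted for. A chitinase matched the list of acceptor genes by letters only and was left out. A gene with the synonym Usp matched the list of donor genes and was left out because the synonym does not say which protein is meant. Members and lists were chosen with earlier results of these data known. Alternatives were pseudocounts of 0.1 and 5, no filter or 5 FPKM, median-of-ratios scaling, quantile normalization, no variance trend, each library left out and, chosen after the data were seen, protein-coding genes only, FPKM rescaled to equal library sums and a block by column ending. Figures were drawn with matplotlib 3.10.9. Sequences are not used here.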

Additional observations from a re-analysis of the deposited data

How the results depend on the processing

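Leaving out a library kept the 17849 tested genes and 1 residual degree of freedom, with the lone library assumed to vary like the other group. The members called higher, 15 with all libraries, then numbered between 1 (without pre B) and 13 (without post A), and those called lower, 3 with all libraries, between 0 (without pre A or pre B) and 3. Without pre A the calls of UGT72B18, UGT75L7 and UGT82A3 remained, and without pre B that of UGT82A3. Over all tested genes, 3754 called higher with all libraries became 425 to 3700, and 2768 called lower became 50 to 2575. With quantile normalization they were 2996 higher and 3937 lower. Rescaling to equal library sums, chosen after the data were seen, gave 1323 higher and 3614 lower, and 7 members higher and 5 lower. Under the other alternatives the number of members called higher was 10 to 15 and called lower 2 to 3. A filter of 5 FPKM, under which 16 members were tested, gave 10 and 2. That filter left UGT72AB1, UGT74K2, UGT88E9, UGT91H7 and UGT92G3 untested, and UGT91H8 was tested but lost its call. With no filter 65 members were tested and 17 called, 13 of them among the 18. No variance trend, a pseudocount of 0.1 and protein-coding genes only kept the same 18. Median-of-ratios scaling kept them too, but its factors ran only from 0.9998 to 1.004. It left the values almost unchanged and so could hardly lose a call. The median log2 fold change over all members, 0.08, was 0.40 with a pseudocount of 0.1, 0.019 with a pseudocount of 5, 0.027 with quantile normalization and 0.029 with equal library sums, and 0.06 to 0.11 with a library left out. The median over all tested genes, 0.02, was -0.14 with quantile normalization and -0.67 with equal library sums. UGT88E8, not past the threshold, changed sign, to -0.21 with quantile normalization and -0.43 with equal library sums, and ranged from -0.027 (without pre A) to 0.104 with a library left out. UGT83G3, not past the filter, ranged from -0.026 (without post A) to 0.308 (without post B). The remaining members named by the rule kept their direction under the alternatives in which they had a value. The table's columns do not carry the replicate numbers of the labels, but their endings are shared between the groups. Deviations from the group means correlated at 0.021 between same-ended libraries over 17849 genes, so the libraries were taken to share only an ending. That ending was also used as a replicate block, chosen after the data were seen and with 1 residual degree of freedom. With it 12 members were called higher and 2 lower, and 3395 and 2231 genes. The calls lost with the block were those of UGT87H2, UGT88E9, UGT91H8 and UGT92G3. At these depths 1 fragment is about 0.04 to 0.07 FPKM on a member, so differences among members under 1 FPKM rest on few fragments.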
